A study of Mus musculus with 14 samples.

Results

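The Forkhead box (Fox) genes encode transcription factors that share the forkhead DNA-binding domain. All 43 Fox genes named for this work were found by symbol in the annotation, among 21938 protein-coding genes on the assembled mouse chromosomes. They fall into 18 subfamilies, named by letter. By subfamily, 25 genes (Foxa to Foxj, Foxl and Foxq) were treated as lineage genes, 15 (Foxk, Foxm, Foxn, Foxo and Foxp) as broadly expressed, and 3 (Foxr1, Foxr2 and Foxs1) as neither. Some genes go against their letter. Foxn1, Foxn4, Foxo6 and Foxp3 are known to be tissue-restricted and Foxj2 and Foxj3 to be widely expressed.

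Trimethylation of lysine 27 of histone H3 (H3K27me3) is set by Polycomb repressive complex 2 and is found at silent genes, often as broad domains over the CpG-rich starts of developmental regulators. Such genes include many that pattern the embryo, and in a fibroblast the regulators of other lineages are commonly held silent in this way. Fox genes of the lineage class direct endoderm, mesoderm, nervous system and sense organs, whereas those of the broad class act in metabolism, the cell cycle and stress responses of most cells.

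The mark was mapped by ChIP-seq in immortalised mouse embryo fibroblasts (iMEF) to follow it upon loss of ASH2L, a core subunit of the H3K4 methyltransferase complexes. The cells came from floxed Ash2l mice with an inducible Cre-ER recombinase, carried a lentiviral FKBP-HA2-ASH2L fusion with the F36V form of FKBP12 and human ASH2L, and had lost exon 4 of the endogenous gene, which holds for control and treated cells alike. There were 12 H3K27me3 libraries, 2 each from control cells and from cells exposed for 30 min, 2 h, 4 h, 8 h or 16 h to dTAG-13, a PROTAC that sends the fusion protein to degradation, and 2 input libraries, 1 of control and 1 of treated cells. The study states that the clone NG3 was used for these experiments, so that the values describe 1 clone. The deposited list gives the position of 153983 sites over all samples and no value per library. From this list, no difference between control and treated cells and no spread between replicates could therefore be given for any Fox gene. The depth behind a site could not be given either. Neither the strength of the mark nor the share of cells that carry it can be read from a site. The study also names lists of sites changed against control at each time and a second H3K27me3 experiment, which were not used here. It reports no changes early and a few sites with stronger signal from 16 h on. All values below are descriptions of the 1 list of sites over all samples, without a test.

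Sites were assigned to a Fox gene by overlap with the 1 kb before and after each of its annotated transcriptional start sites (TSSs). Promoter sequences are shown for 6 genes, chosen by whether a site covered them, as the 250 bases before the RefSeq start (GRCm38.p6), 5′ to 3′, with CpG dinucleotides in capitals. Foxf2 and Foxc1 are neighbours on chromosome 13 of which the first was covered by a site and the second was not, Foxb2 and Foxi1 are covered promoters with fewer CpG dinucleotides than Foxf2, and Foxd3 and Foxk2 were not covered.
Foxf2, chr13:31625566-31625815, plus strand: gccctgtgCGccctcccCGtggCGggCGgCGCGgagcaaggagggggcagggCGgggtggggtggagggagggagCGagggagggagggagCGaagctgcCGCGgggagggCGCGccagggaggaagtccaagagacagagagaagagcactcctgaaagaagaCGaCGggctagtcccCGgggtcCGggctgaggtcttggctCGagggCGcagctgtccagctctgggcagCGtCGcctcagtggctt
Foxc1, chr13:31806396-31806645, plus strand: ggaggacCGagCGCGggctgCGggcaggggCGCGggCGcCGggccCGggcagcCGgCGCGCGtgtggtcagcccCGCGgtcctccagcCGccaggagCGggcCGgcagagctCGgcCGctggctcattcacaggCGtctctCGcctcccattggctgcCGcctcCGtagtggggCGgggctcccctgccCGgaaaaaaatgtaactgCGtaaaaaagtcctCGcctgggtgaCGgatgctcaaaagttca
Foxb2, chr19:16873831-16874080, minus strand: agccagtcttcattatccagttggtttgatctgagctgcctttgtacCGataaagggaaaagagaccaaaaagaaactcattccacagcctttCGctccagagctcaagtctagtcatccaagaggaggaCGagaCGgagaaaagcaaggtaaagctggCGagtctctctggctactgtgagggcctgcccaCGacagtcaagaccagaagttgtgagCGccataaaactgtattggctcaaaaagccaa
Foxi1, chr11:34208090-34208339, minus strand: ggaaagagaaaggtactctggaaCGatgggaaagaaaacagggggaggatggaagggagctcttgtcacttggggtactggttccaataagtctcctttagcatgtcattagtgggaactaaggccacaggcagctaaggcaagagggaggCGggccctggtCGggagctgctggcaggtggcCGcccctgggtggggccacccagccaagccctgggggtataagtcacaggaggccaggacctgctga
Foxd3, chr4:99656049-99656298, plus strand: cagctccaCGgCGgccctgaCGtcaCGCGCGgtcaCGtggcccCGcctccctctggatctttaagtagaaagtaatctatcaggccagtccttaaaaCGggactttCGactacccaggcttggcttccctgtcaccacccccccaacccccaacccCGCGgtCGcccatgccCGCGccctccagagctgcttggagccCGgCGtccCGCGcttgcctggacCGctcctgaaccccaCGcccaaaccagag
Foxk2, chr11:121259737-121259986, plus strand: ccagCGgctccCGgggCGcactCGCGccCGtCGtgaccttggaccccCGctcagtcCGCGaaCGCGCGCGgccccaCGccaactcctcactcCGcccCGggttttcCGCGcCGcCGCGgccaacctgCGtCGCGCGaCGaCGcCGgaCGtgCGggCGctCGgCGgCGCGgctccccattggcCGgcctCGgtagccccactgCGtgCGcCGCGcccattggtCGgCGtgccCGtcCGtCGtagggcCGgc

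All 250 bases lay inside a site for Foxf2, Foxb2 and Foxi1, and 0 bases for Foxc1, Foxd3 and Foxk2. The stretches held 21 CpG dinucleotides in Foxf2, 29 in Foxc1, 7 in Foxb2, 4 in Foxi1, 21 in Foxd3 and 48 in Foxk2, compared with a median of 6 over the 32851 promoter windows of the table. These 6 were picked with their coverage known, so no comparison of covered with uncovered promoters rests on them. The forkhead motif GTAAACA, searched on both strands and thus also as TGTTTAC, was found in the 300-base window, which includes the first bases after the start, of 1 of the 28 Fox genes that the table holds, Foxa1, and in 3.65% of all windows.

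A site was present at a TSS of 23 of the 43 Fox genes, or 53.5%, compared with 31.5% of all protein-coding genes. By width, a site of at least 2 kb was found at 19 Fox genes, or 44.2% (16.1% of all genes), one of at least 5 kb at 14, or 32.6% (8.69%), and one of at least 10 kb at 10, or 23.3% (3.82%). The wide sites belonged mostly to the lineage genes, of which 17 of 25 (68%) had a site of at least 2 kb, 13 (52%) one of at least 5 kb and 9 (36%) one of at least 10 kb. Of the 15 broadly expressed genes 2 (13.3%), Foxn4 and Foxo6, had a site of at least 2 kb, which is near the share of all genes. Foxr1, Foxr2 and Foxs1 had none.

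The lineage genes fell into 2 classes with little between. Either the widest site was at least 2 kb, as in 17 genes, or there was no site at a TSS, as in 8, and in 0 genes was the widest site narrower than 2 kb. Among all protein-coding genes with a site, 51.1% had one of at least 2 kb. The boundary was close for some genes, since the widest site of Foxi1 measured 2011 bp, and Foxa1 and Foxd2 reached 2 kb only through sites beside the gene start. When a site had to lie over a TSS itself, Foxa1 and Foxd2 dropped out and 15 of 25 lineage genes kept a site this wide, against 14.4% of all genes. With sites less than 1 kb apart joined into 1, Foxp3 was gained and 20 of the 43 Fox genes reached 2 kb, against 20.3% of all genes. With windows of 2 kb before and after each TSS, the lineage gene Foxj2 gained a site but none of at least 2 kb. Its nearest site measured 375 bp, so that Foxj2 then fell between the 2 classes.

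**Figure D1:**
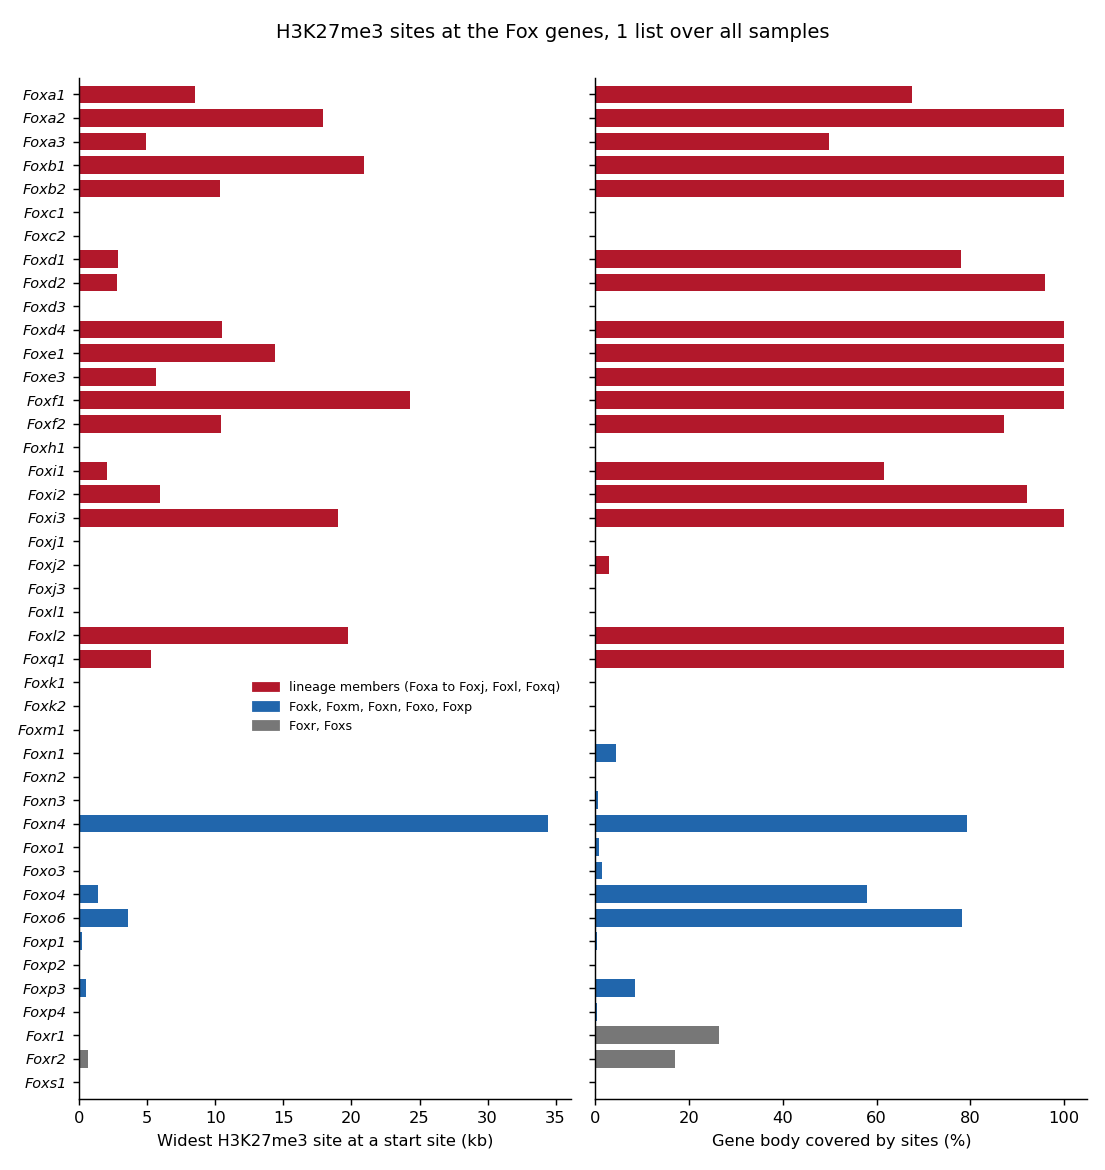
Width of the widest H3K27me3 site at a TSS (left, kb) and percent of the gene body inside sites (right) for each of the 43 Fox genes, coloured by class. Bars are values of 1 list over all samples, without replicates. Long bars are found at most lineage genes (red), whereas Foxn4 and Foxo6 are the only genes of the Foxk, Foxm, Foxn, Foxo and Foxp subfamilies (blue) with a site of at least 2 kb.

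The Foxa genes, pioneer factors of endoderm and liver, all carried the mark. At Foxa2 a single site of 17907 bp covered the gene from 3.34 kb before its start to 10.5 kb past its end. Foxa1 had a site of 1814 bp over its start. Separated from it by a gap of 420 bp, one of 8519 bp began 977 bp upstream and ran away from the gene. A further site of 2985 bp lay inside the gene, away from the TSSs, and 67.5% of the Foxa1 body was covered. At Foxa3 the site at the TSS measured 4923 bp. With a further site of 787 bp, 50.0% of the Foxa3 body was covered, the lowest share of the lineage genes with a site at a TSS. Thus Foxa2 was covered whole, while coverage of Foxa1 and Foxa3 ended within the gene.

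Both Foxb genes, which act in the developing brain, lay entirely inside sites, of 20909 bp at Foxb1 and 10333 bp at Foxb2. The Foxb1 site extended 13.9 kb upstream of the start. In the Foxe subfamily, Foxe1, needed for the thyroid gland, had a site of 14399 bp and Foxe3, a regulator of the lens, one of 5649 bp, and both genes were covered whole. Foxl2, which maintains the granulosa cells of the ovary, had a site of 19736 bp that reached 12.7 kb downstream of the start.

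In the Foxi subfamily, a group of ectodermal regulators, widths spread from 2011 bp at Foxi1, which acts in the inner ear and kidney, over 5925 bp at Foxi2 to 19029 bp at Foxi3. Coverage of the gene body rose in the same order, from 61.6% over 92.1% to 100%, where that of Foxi1 included a further site of 620 bp. Foxq1, known for its role in hair structure, had a site of 5265 bp over the whole gene, which also overlapped the gene A530084C06Rik, and a second one of 956 bp behind a gap of 355 bp.

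Among the Foxd genes, Foxd4 was covered whole by a site of 10473 bp. Foxd1, a regulator of the kidney stroma, had a site of 2851 bp at its TSS and a wider one of 6283 bp that ran past its end. Together they covered 78.0% of its body. At Foxd2 a site of 2747 bp covered 95.9% of the gene but ended 107 bp before the start was reached, and it is the only lineage gene with a site whose start lay outside one. Foxd3, a regulator of neural crest and pluripotent cells, had no site within 33.7 kb. However, all 75-base stretches (100%) of the TSS windows and of the body of Foxd3 occur a second time, in a patch sequence of the assembly, and the part of this in the missing site was not tested. For the TSS windows of other Fox genes the repeated share was at most 1.5%, except for Foxp4 with 34.4%.

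The Foxf genes, regulators of the mesenchyme around gut and lung, both carried the mark. The Foxf1 site measured 24299 bp, the widest of the lineage genes and rank 187 among all protein-coding genes. It began 16.2 kb upstream of Foxf1 and also overlapped the protein-coding genes Mthfsd and Gm20388. At Foxf2 the site at the TSS measured 10395 bp, of which 7.95 kb were upstream. With a further site of 2426 bp inside the gene, 87.3% of Foxf2 was covered.

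The 8 lineage genes without a site at a TSS were Foxc1, Foxc2, Foxd3, Foxh1, Foxj1, Foxj2, Foxj3 and Foxl1. Thus both Foxc genes and all 3 Foxj genes lacked a site, while in 6 of the 11 lineage subfamilies every gene had one of at least 2 kb. The Foxc genes are regulators of mesenchyme, vessels and eye, and had no site within 23.7 kb (Foxc1) and 22.1 kb (Foxc2). Foxj1, the master regulator of motile cilia, had none within 22.9 kb, and Foxl1, a gene of gut mesenchyme, none within 33.9 kb. Foxh1, a partner of SMAD proteins in Nodal signalling, had a site of 676 bp at 5.10 kb. Foxj2 and Foxj3 differed from the others in that narrow sites lay inside the genes, of 375 and 369 bp in introns of Foxj2 and of 200 bp in an exon of Foxj3. For most of these genes the list thus held nothing at or near the start, rather than a site that just missed the window. Foxj2 came closest to the window, with its site of 375 bp at 1.355 kb, and the nearest site of Foxj3 lay at 4.887 kb.

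Neighbouring Fox genes differed. On chromosome 8, Foxf1, Foxc2 and Foxl1 lie in the same direction within 46.3 kb (chr8:121084386-121130644), with 31.8 kb from the start of Foxf1 to that of Foxc2 and 11.8 kb on to that of Foxl1. Sites covered 20.2% of this stretch, all at its Foxf1 end. The site over Foxf1 ended 23.7 kb before the start of Foxc2, and the last site between them, of 1077 bp, 22.1 kb before it, and no site was listed from there to the end of Foxl1. On chromosome 13, Foxq1, Foxf2 and Foxc1 span 256.3 kb (chr13:31556134-31812476), in which 22 sites covered 12.6%. Foxq1 and Foxf2 had wide sites and Foxc1, 180.8 kb beyond Foxf2, had none. The third group, Foxd2 and Foxe3 on chromosome 4 (chr4:114906282-114926013), lies within 19.7 kb with starts 17.1 kb apart. Each gene was covered by a site of its own, and 30.8% of the stretch was covered. In no case was 1 site shared by several Fox genes, since the 29 sites at their TSSs were all different.

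**Figure D2:**
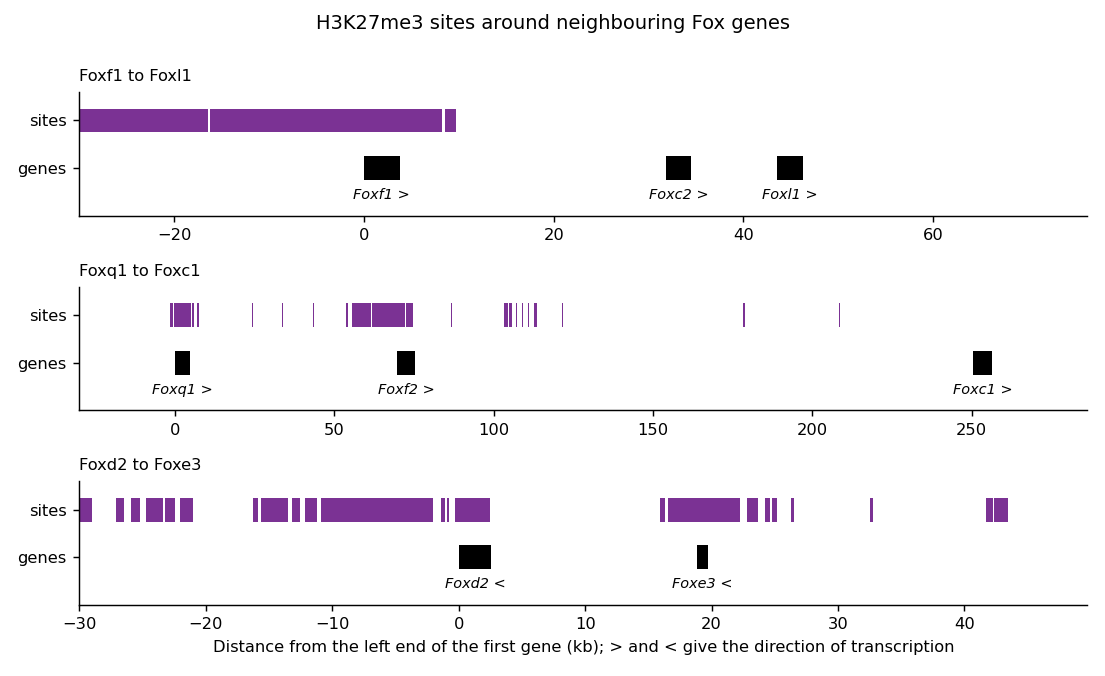
Maps of the stretches Foxf1 to Foxl1, Foxq1 to Foxc1 and Foxd2 to Foxe3, to scale within each panel, with distance in kb from the left end of the first gene. Purple bars are H3K27me3 sites (those running past a panel are cut off at its edge) and black bars are genes. Foxf1, Foxq1, Foxf2, Foxd2 and Foxe3 lie under sites, whereas Foxc2, Foxl1 and Foxc1 lie in stretches without one at their starts.

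The position of sites relative to the genes was then examined. In 16 lineage genes the gene start was inside a site. These sites extended between 286 and 16248 bp upstream (median 3822 bp) and between 1257 and 14567 bp downstream of the start (median 4730 bp), and in 11 of the 16 the downstream part was longer. The whole gene lay inside 1 site in 10 lineage genes, in 0 broadly expressed genes and in 480, or 2.19%, of all protein-coding genes. Lineage Fox genes are short, with a median length of 3752 bp, compared with 49907 bp for the broadly expressed and 17425 bp for all genes. Gene length therefore moved with the class. Among genes shorter than 10 kb, 16 of 22 lineage Fox genes reached 2 kb, against 14.4% of all such genes.

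Coverage of the gene body differed in the same way. Its median was 87.3% in lineage genes, 0.522% in broadly expressed genes and 0% over all protein-coding genes. The spread within the classes was wide, with quartiles of 0.217% and 100% in lineage genes, of which 8 had no site at a TSS, and of 0.0479% and 6.43% in broadly expressed genes. Of the TSS windows a median of 82.3%, 0% and 0% was covered. At the gene start itself a site was present in 64% of the lineage genes, 20% of the broadly expressed and 16.9% of all genes. At 5 kb upstream the shares were 40%, 20% and 12.8%, and at 5 kb downstream 52%, 20% and 10.8%. From 10 to 20 kb upstream the share of lineage genes varied between 20% and 44% (median 32%), and between 16% and 40% (median 28%) from 10 to 20 kb downstream, while that of all genes lay between 11.1% and 11.8% and between 9.30% and 9.79%. Coverage of the lineage genes was thus highest around the start and uneven farther out, and its median stayed above that of all genes in both outer stretches. So did the median of the broadly expressed genes, with 20% against 11.4% upstream and 13.3% against 9.56% downstream.

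**Figure D3:**
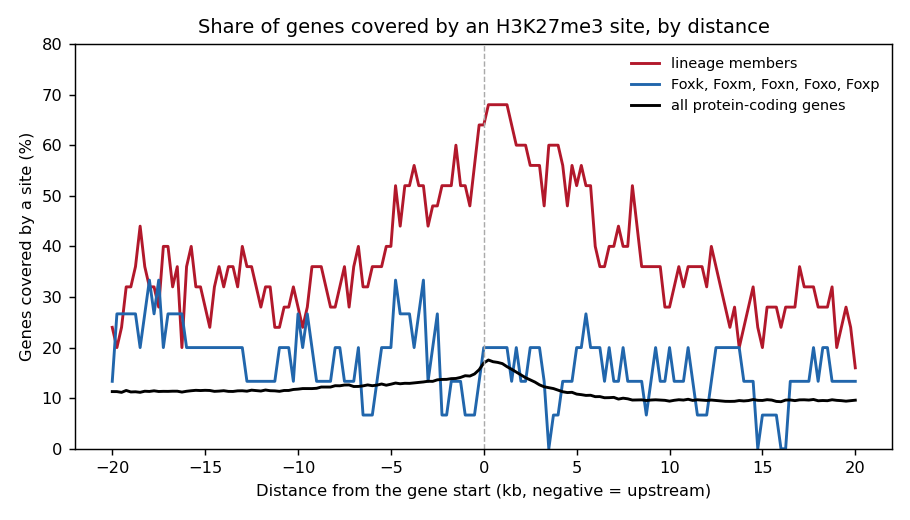
Percent of genes covered by an H3K27me3 site at each distance from the gene start (kb, negative is upstream), for 25 lineage Fox genes (red), 15 genes of the Foxk, Foxm, Foxn, Foxo and Foxp subfamilies (blue) and 21938 protein-coding genes (black). At the start the values are 64%, 20% and 16.9%, and the jagged coloured lines reflect the small number of genes.

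Among the 15 broadly expressed genes 5 (33.3%) had a site at a TSS, which is near the 31.5% of all protein-coding genes. Foxn4, a factor of retinal and spinal cord progenitors, had the widest site of all Fox genes, at 34439 bp (rank 66 of all protein-coding genes), with 31.0 kb of it upstream, where it also overlapped Myo1h. With sites less than 1 kb apart joined, Foxf1 (64774 bp), Foxi3 (63046 bp), Foxa2 (55369 bp) and Foxl2 (55269 bp) exceeded Foxn4 (41294 bp). Further sites of 5348, 575 and 277 bp lay at other start sites of Foxn4, and 79.4% of its body was covered by 7 sites. Foxo6, a FoxO gene of the brain, had a site of 3579 bp and 78.3% of its body covered by 5 sites. These are genes that are known to be tissue-restricted in spite of their subfamilies. With Foxn1, Foxn4, Foxo6 and Foxp3 counted as lineage genes and Foxj2 and Foxj3 as broadly expressed, 19 of 27 lineage genes and 0 of 13 broadly expressed genes had a site of at least 2 kb. The 0 was fixed by this move, since Foxn4 and Foxo6 were the only broadly expressed genes with such a site. Foxj2 and Foxj3, which left the lineage class, had no site at a TSS. The regrouped counts are therefore no support for the contrast of the classes.

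In the other 3 genes the sites were narrow. Foxo4, a target of insulin signalling on the X chromosome, had a site of 1374 bp over its start and 58.0% of its body covered by 4 sites. Around Foxo4 the list was dense, with 272 sites within 500 kb, the most for any Fox gene and above the 95th percentile of 193 for all genes. Foxb1 and Foxd4 (239 each), Foxd2 (205), Foxe1 and Foxi1 (204 each) and Foxe3 (196) were also above this percentile. Foxp3, which defines regulatory T cells, had sites of 506 and 200 bp at internal start sites and 8.36% of its body covered. At Foxp1 a site of 200 bp, the minimum in the list, lay at an internal start site and also overlapped Gm20696. Foxr2, of neither class, had a site of 654 bp within 1 kb of an internal start site.

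While 31.5% of all protein-coding genes had a site at a TSS, none was listed for 10 of the 15 broadly expressed genes. They comprise the ubiquitous Foxk1 and Foxk2, Foxm1, which drives the genes of the G2 and M phases, Foxn1, Foxn2 and Foxn3, the insulin-regulated Foxo1 and Foxo3, and Foxp2 and Foxp4. The nearest site was 78.0 kb from the start sites of Foxn2, 31.7 kb from those of Foxk1, 26.5 kb from those of Foxk2 and 19.3 kb from those of Foxm1. Of these 10 genes Foxo1 stood closest to the window, with a site of 614 bp at 1.37 kb. Foxo3 had one of 2632 bp at 3.01 kb. Foxn1, the gene of thymic epithelium, is restricted in expression but had 4 intronic sites of 200 to 379 bp only, over 4.50% of its body.

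Long Fox genes held few sites. The 10 longest, Foxj3, Foxk1, Foxk2, Foxn2, Foxn3, Foxo1, Foxo3, Foxp1, Foxp2 and Foxp4, measure between 49.8 and 597.4 kb and 2001 kb together. They held 20 sites, or 9.99 per Mb, compared with 56.2 per Mb in the 5504 protein-coding genes of at least 45 kb. Covered were 0.327% of their length and 5.78% of that of the other long genes. The sites had a median width of 274 bp and at most 1303 bp, in Foxo3, and 9 of the 20 had the minimum width. They were centred on introns in 12 cases and on exons in 8. Foxp2, of 540.6 kb, held 2 sites in its body, and only 4 sites lay within 500 kb of it, the fewest for any Fox gene.

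CpG content at the gene start did not separate the classes in the direction of the sites. Only the 5′ end of each gene was scored for it, whereas sites were counted at all annotated TSSs. The term CpG-rich refers to starts whose surrounding sequence, 500 bp in each direction, reached 50% GC and an observed-to-expected CpG ratio of 0.6. This held for 14 of 15 broadly expressed and 16 of 25 lineage genes. Of the CpG-rich genes, 2 of 14 broadly expressed and 10 of 16 lineage genes reached 2 kb, against 14.3% of all CpG-rich protein-coding genes. Of the 9 lineage genes that were not CpG-rich 7 had such a site, among them Foxa2 and Foxd4. Within 500 bp of the 5′ end, the median number of CpG dinucleotides was 63 in the lineage genes with a site and 72.5 in those without. It was 99 in the broadly expressed genes, with wide overlap (13 to 112, 9 to 99 and 16 to 149).

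**Figure D4:**
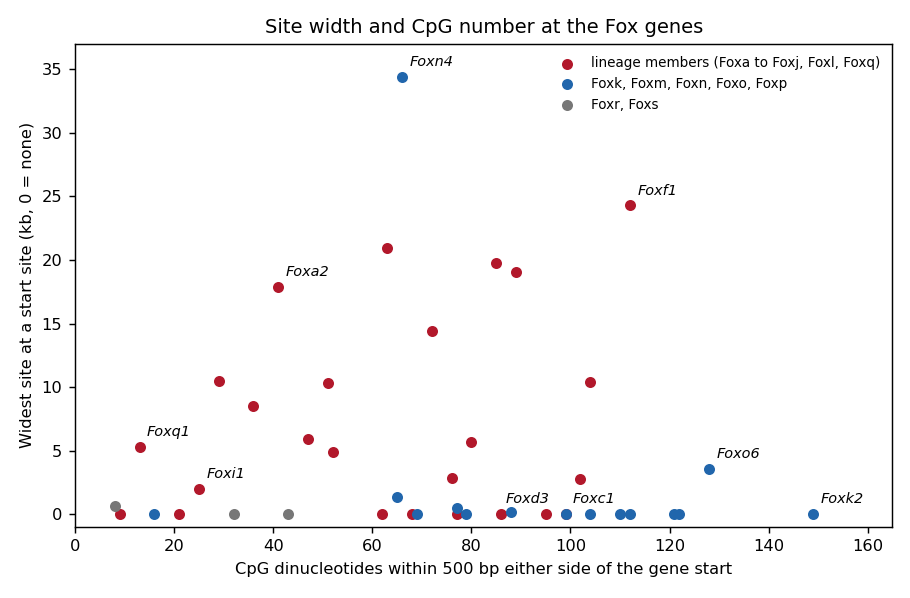
Number of CpG dinucleotides within 500 bp either side of the gene start against the width of the widest H3K27me3 site at a TSS (kb, 0 is none), 1 point for each of the 43 Fox genes, coloured by class. Genes with a site of at least 5 kb span from Foxq1 with 13 CpG dinucleotides to Foxf1 with 112, and Foxk2, with the most (149), has no site.

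The density of sites in the surroundings was compared as well. Within 500 kb, lineage genes with a site of at least 2 kb had a median of 161 sites (21 to 239) and those with no site 120 (35 to 146), compared with 81 for the broadly expressed genes and 76 for all protein-coding genes. The median of the lineage genes without a site was thus above that of all genes, although Foxc1 had 35. The lowest value of a gene with a wide site, 21, was that of Foxb2, and the highest, 239, was shared by Foxb1 and Foxd4.

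Genes that work with Fox factors were measured in the same way, and the shares of all protein-coding genes to read them against are 31.5% for any site and 16.1% for one of at least 2 kb. Of 15 partners of the Foxa factors in endoderm, 13 had a site at a TSS and 12 one of at least 2 kb, with 26548 bp at Cdx2, 23623 bp at Onecut1, 22672 bp at Gata4 and 15816 bp at Pdx1. Of 12 partners of Foxj1 in motile cilia, 10 had a site and 8 one of at least 2 kb, such as Trp73 (16843 bp), Rfx2 (10397 bp) and Tekt1 (9724 bp). Foxj1 itself had none. In contrast, 0 of 25 genes of the FoxO pathway and 0 of 15 targets of Foxm1 had a site of at least 2 kb, and 5 and 1 of them a site of any width. Of 16 genes of fibroblast identity 5 (31.3%) had a site, a share close to the 31.5% of all genes, the widest of 534 bp at Prrx1, and 0 one of at least 2 kb.

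Other families of developmental transcription factors were set beside the Fox genes. A site of at least 2 kb was found at 7 of 9 Pax genes, 11 of 17 T-box genes and 4 of 6 Gata genes, beside 17 of 25 lineage Fox genes and 16.1% of all protein-coding genes. One of at least 5 kb was found at 7, 6, 2 and 13 of them, and at 8.69% of all genes. The Pax, T-box and Gata families were taken whole, whereas the lineage genes are a part of the Fox genes. Among all 43 Fox genes 19 (44.2%) had a site of at least 2 kb and 14 (32.6%) one of at least 5 kb. These counts are small and were not tested against each other.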

How the data were processed

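H3K27me3 ChIP-seq was performed in 12 libraries, with 2 inputs. Per the study's methods, the authors used Trim Galore for trimming, BWA for alignment to mm10 (GRCm38.p6), samtools for filtering by ENCODE recommendations, Picard to merge replicates, and MACS to call broad peaks, and brought samples to the lowest coverage. Versions, peak threshold and the rule for combining samples are not given in the sources used here. The file deposited by the authors holds only chromosome, start and end of each site, counted from 0 with the end excluded (smallest width 200 bp), and is printed counted from 1. It has 0 columns with values per library, so depth is unknown and no test could be run. A site called in any sample counts alike.

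Sites were compared with the GENCODE M21 annotation of GRCm38.p6 (the study used M25), using Python 3.11.15, numpy 2.4.6 and matplotlib 3.10.9. The functions for intervals were tested on simulated data. All Fox genes could be named. Values are given in full for those with a site of at least 5 kb, the widest of each subfamily, the genes lying close together and the broadly expressed genes with a site. Of other genes, those overlapped by the same site and those of the lists with a site of at least 2 kb could be named; Prrx1 was named after its value was seen, as the widest of its list. The Foxd2 and Foxe3 group was added in the same way, as was the account of repeated sequence. The genes, classes and lists were chosen with earlier results of these data known. The repeated share is that of 75-base stretches found again in the assembly, patches included. Promoter sequences are from RefSeq, which held 28 of 43 genes.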

Additional observations from a re-analysis of the deposited data

How the results depend on the processing

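For 9 counts and medians 11 alternatives were tried, which gave 82 values, of which 78 were within 1.5 times the reported value and 4 were not. The factor of 1.5 was also used for the medians and was chosen for them after the values were seen. The median covered share of the gene body in broadly expressed genes was 0% with only sites of at least 500 bp and likewise 0% with only sites of at least 1 kb, as narrower sites were then left out, and 0.286% with the classes regrouped by known expression. Under that regrouping 0 broadly expressed genes had a site of at least 2 kb, since Foxn4 and Foxo6 had changed class. Lineage genes with such a site numbered between 12 (of 18, when genes within 100 kb of another Fox gene were left out) and 19 (of 27, regrouped). Without Foxd3 and Foxp4, an alternative added after seeing the data, there were 17 of 24.

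Widths depended on where sites were split. With sites less than 1 kb apart joined, Foxp3 gained a site of at least 2 kb (3186 bp), while 20.3% of all genes then had one, and Foxa3, Foxd1 and Foxd2 gained one of at least 5 kb. Foxf1, Foxi3, Foxa2 and Foxl2 then exceeded Foxn4, and Foxd2 rose from 2747 to 18733 bp. The order of widths among Fox genes thus depended on the joining.

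No paired analysis was possible because single libraries have no values in the list, nor was there a replicate to leave out. The read depth behind a site is unknown, so absent sites cannot be told apart from sites below detection.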
